A study of Mus musculus with 2 samples.

Results

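The genes described here are the interferon-stimulated genes of tumor-infiltrating leukocytes. They are 35 genes chosen by name from textbook knowledge of interferon responses, with earlier results of these data known. These genes were followed through every cell group of 2 single-cell libraries. Of the 35 listed genes, 34 matched one of the 32285 genes in the files, and Mx1 is not analysed here. They were divided into 10 interferon-induced GTPases that lean toward interferon gamma (Gbp2, Gbp3, Gbp4, Gbp5, Gbp7, Iigp1, Igtp, Irgm1, Irgm2 and Ifi47), 9 Ifit and Oas family genes that lean toward type I interferon (Ifit1, Ifit2, Ifit3, Ifit3b, Oas1a, Oas2, Oas3, Oasl1 and Oasl2), 4 regulators (Irf1, Irf7, Stat2 and Usp18), 4 sensors (Ifih1, Zbp1, Ifi204 and Ifi205) and 7 other effectors (Isg15, Rsad2, Cmpk2, Bst2, Xaf1, Rtp4 and Ifi44). Transcripts were counted as unique molecular identifiers (UMIs), each a tag that marks 1 captured RNA molecule. The members took 63748 UMIs, or 0.236% of all UMIs, in the control library and 75062 UMIs, or 0.264%, in the knockout library.

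Both libraries came from AT3 mammary tumors, a transplantable line of mouse breast cancer cells. The control library, labelled WT, was from Pgd fl/fl mice, in which loxP sites flank the gene for 6-phosphogluconate dehydrogenase (6PGD), an enzyme of the pentose phosphate pathway. The knockout library, labelled 6PGDKO, was from Pgd fl/fl LysM Cre mice, in which Cre recombinase is driven by the lysozyme M gene, active in macrophages, monocytes, neutrophils and some dendritic cells (DCs). Both groups thus carried the floxed allele, neither was treated, and cells of tumors from several mice were pooled. Each genotype is 1 library, so no difference between genotypes has a replicate check and no p-value is given. The intervals below cover counting error only, and say nothing of the spread between mice.

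Interferons are secreted alarm proteins. Type I interferons signal through IFNAR1 and IFNAR2 to a transcription factor complex with IRF9 that binds the interferon-stimulated response element (ISRE), and they are best known for switching on antiviral genes such as the Ifit and Oas families. Interferon gamma, made chiefly by T cells and natural killer (NK) cells, signals through IFNGR1 and IFNGR2 to gamma-activated sites (GAS) in its target genes and is best known in macrophages for the guanylate-binding proteins (Gbp) and immunity-related GTPases (Irgm, Igtp, Iigp1), which attack vacuoles that hold microbes, although many genes answer both signals.

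The sequences before the start sites show how the lists share these elements. RefSeq promoter windows (GRCm38.p6, from 250 bases before to 50 bases after the start) were found for 27 of the listed genes and not for 8. The letters GAAA, any 2 bases and GAAA again, an ISRE-like pattern searched on both strands with overlapping matches counted separately, stood in 7 of 8 GTPase windows, 5 of 8 Ifit and Oas windows, 1 of 3 regulator, 2 of 2 sensor and 3 of 6 effector windows. Over all members that was 66.7%, beside 3.99% of the 27025 genes with a window. The GAS-like pattern TTCNNNGAA stood in 4 of 8 GTPase windows, 2 of 8 Ifit and Oas windows and 29.6% of all members, beside 9.55% of all genes. A match is a description of letters and not a measured binding site.

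The stretches below are from members whose windows hold a match, and they do not stand for the whole lists. The windows of Ifit2, Oasl1 and Oasl2 hold no ISRE-like match. Stretches are printed 5′ to 3′ on the strand of the gene with the matched letters in capitals. At most 10 bases flank the matches on each side, fewer where the stretch was ended at the start that sets the window. The printed stretches of Ifit3, Ifit3b and Oas1a overlap the annotated spans of their genes, so they are not wholly upstream of them. Ifit1, Ifit3, Ifit3b, Oas1a, Isg15 and Rsad2 carry the ISRE-like letters, in one or the other orientation. Ifit1 has a pair of them and Isg15 an overlapping run of 3, while Ifit3 and Ifit3b each have another match that is not printed.
Ifit1 (chr19:34640775-34640823, plus strand): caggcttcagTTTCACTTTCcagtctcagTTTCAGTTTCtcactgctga
Ifit3 (chr19:34583363-34583392, plus strand): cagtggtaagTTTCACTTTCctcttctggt
Ifit3b (chr19:34607759-34607788, plus strand): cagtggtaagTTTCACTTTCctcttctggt
Oas1a (chr5:120907526-120907555, minus strand): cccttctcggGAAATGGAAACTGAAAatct
Isg15 (chr4:156200865-156200906, minus strand): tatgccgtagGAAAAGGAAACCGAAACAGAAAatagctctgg
Rsad2 (chr12:26456553-26456582, minus strand): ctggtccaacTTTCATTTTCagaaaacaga

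The GTPase genes are shown with Irf1 because their windows mix the patterns. Gbp2 and Irgm1 have only ISRE-like letters in capitals. Igtp and Irgm2 each have a GAS-like match, the first run of capitals, next to an ISRE-like match, the second run. Irf1, the transcription factor that interferon gamma induces, has a GAS-like match alone.
Gbp2 (chr3:142620594-142620623, plus strand): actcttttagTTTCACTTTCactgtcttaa
Irgm1 (chr11:48871425-48871460, minus strand): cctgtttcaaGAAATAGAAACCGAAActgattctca
Igtp (chr11:58199501-58199541, plus strand): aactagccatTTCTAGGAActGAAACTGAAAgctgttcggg
Irgm2 (chr11:58214892-58214932, plus strand): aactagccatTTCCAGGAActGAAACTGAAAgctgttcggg
Irf1 (chr11:53769914-53769942, plus strand): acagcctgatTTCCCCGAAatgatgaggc

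**Figure D1:**
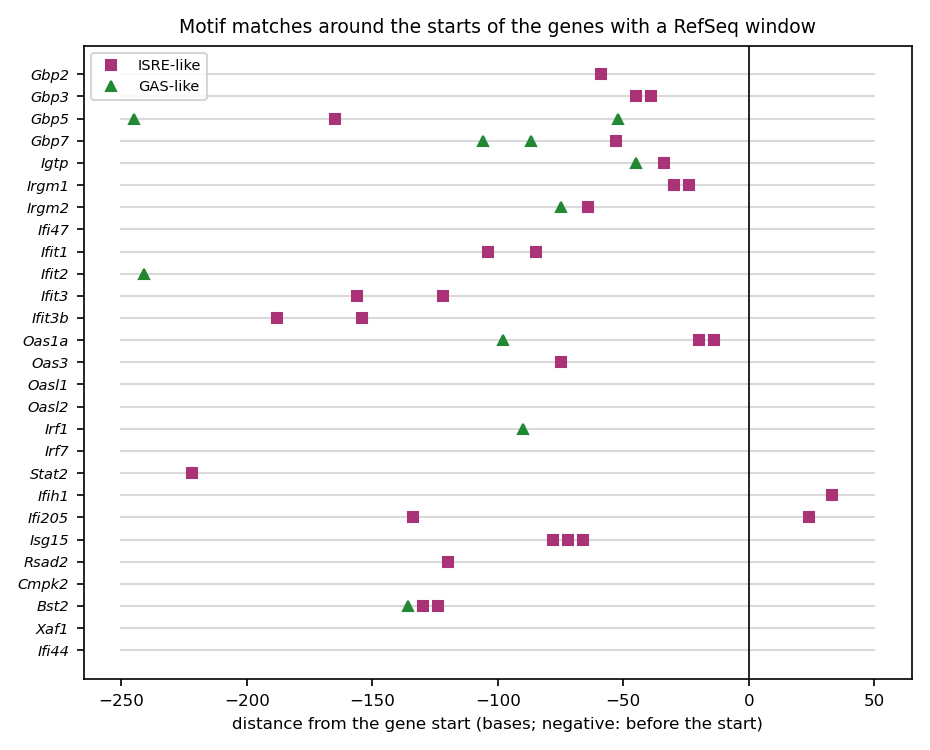
Matches of the ISRE-like (squares) and GAS-like (triangles) letters by distance in bases from the start that sets the window, 1 line for each of the 27 members with a RefSeq window. Matches of both kinds lie within the 250 bases before the start in Gbp5, Gbp7, Igtp, Irgm2, Oas1a and Bst2, and Isg15 has 3 ISRE-like matches side by side.

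Several members are neighbors on the chromosome. The 4 Ifit genes span 99460 bases of chromosome 19, and Gbp2, Gbp3, Gbp5 and Gbp7 span 141075 bases of chromosome 3. The windows of Ifit3 and Ifit3b share a run of 169 identical bases, and those of Ifit3 and Ifit1 a longest run of 13 bases. The windows of Ifit3 and Ifit3b lie inside the annotated spans of these genes. The runs do not show whether reads of the genes can be told apart. The transcripts of Ifit3 and Ifit3b were not compared, and the separate values of these genes remain uncertain.

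After filtering, 3565 control cells and 2798 knockout cells remained, with median UMIs per cell of 5554 and 7926. The libraries shared 0 cell barcodes, and each cell's own sample tag was its highest, while tags of the other library made up 6.06% and 3.90% of tag UMIs. The paper describes the tagged, sorted cells of both genotypes as pooled. If cells were assigned to a library by tag, the barcodes and highest tags could not test the labels. Clustering without the members among the variable genes gave 18 clusters, of which 14 were named from marker genes and 4 were not. The 4 others are called by their leading genes: Cd8b1/Nkg7 cells (546 control and 390 knockout cells), Chil3/Ly6i cells (126 and 330), H2-M5/Epcam cells (115 and 167) and Mgp/Krt8 cells (72 and 96). The labels speak of CD45+ cells and, in another sentence, of CD11b+ cells, and both libraries held many T cells. The macrophages numbered 737 and 755, the T cells 1141 and 677. Shares of cell groups are not compared here.

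Pgd itself, the targeted gene, checked the labels. Its level in macrophages was 106 CPM (UMIs of the gene per 1000000 UMIs of the group in that library) in the control and 28.8 CPM in the knockout, a log2 ratio of -1.88 (95% counting interval -2.07 to -1.69). The ratio was -1.34 in Chil3/Ly6i cells and 0.24 (-0.10 to 0.57) in T cells. It was -0.76 (-1.39 to -0.14) in Mgp/Krt8 cells, -0.02 (-0.91 to 0.90) in cDC1, and -1.49 (-6.82 to 1.06) in B cells, where the knockout had 1 Pgd UMI. The knockout library was thus low in macrophages and Chil3/Ly6i cells and also, by less, in Mgp/Krt8 cells, while cDC1 and T cells were not past 1.5-fold.

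The level of each list differed more between cell groups than between genotypes in most groups. For the GTPases, neutrophils (phagocytes of acute inflammation) stood highest with a summed level of 943 CPM in the control and 882 CPM in the knockout. Mgp/Krt8 cells followed at 761 and 783 CPM, Chil3/Ly6i cells at 705 and 771 CPM, and T cells at 691 and 697 CPM. Macrophages at 521 and 556 CPM and Cd8b1/Nkg7 cells at 504 and 544 CPM lay in the middle. NK cells or type 1 innate lymphoid cells (ILC1s) at 376 and 385 CPM, mature DCs at 323 and 326 CPM and H2-M5/Epcam cells at 276 and 258 CPM came next. B cells at 258 and 180 CPM and cDC1, the cross-presenting dendritic cells, at 189 and 171 CPM were lowest. The order of the 11 groups was the same in both libraries. In the control, the counting intervals of neighbors in this order overlapped except between T cells and macrophages, between Cd8b1/Nkg7 cells and NK cells or ILC1s, and between B cells and cDC1.

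Among the T cells the GTPases were uneven. The Foxp3 cluster (370 control and 340 knockout cells, a gene that marks regulatory T cells) had 1263 CPM in the control and 1185 CPM in the knockout, above every group named so far. Gbp7 alone stood at 258 and 301 CPM there, and Gbp3 at 185 and 186 CPM. Cycling T cells had 563 and 543 CPM, and the Tnfsf8/Cd4 cluster 354 and 373 CPM.

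The Ifit and Oas genes, which bind viral RNA or sense double-stranded RNA, had a different order. Neutrophils again led with 964 and 1305 CPM, from 137 and 225 UMIs. Chil3/Ly6i cells had 671 and 476 CPM, macrophages 417 and 459 CPM and Cd8b1/Nkg7 cells 375 and 362 CPM. H2-M5/Epcam cells had 195 and 221 CPM, T cells 176 and 145 CPM, NK cells or ILC1s 155 and 170 CPM, cDC1 137 and 230 CPM, and mature DCs 123 and 152 CPM. The intervals of the last 4 of these overlapped from each to the next in the control. Unlike the GTPases, the list was not raised in Foxp3 T cells, with 177 and 154 CPM. Mgp/Krt8 cells had 781 and 173 CPM and B cells 211 and 39.2 CPM, values described with their cells below.

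Single members had sites of their own. Isg15 was highest in neutrophils, at 2428 and 2598 CPM, with Chil3/Ly6i cells next at 581 and 533 CPM. Irf1 was 436 and 209 CPM in neutrophils and 295 and 278 CPM in Foxp3 T cells, so the highest site differed between the libraries. Irf7 led in Chil3/Ly6i cells, at 362 and 292 CPM, and Bst2 in macrophages, at 749 and 707 CPM.

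The GTPases did not share 1 site. Gbp2 was 387 and 255 CPM in neutrophils and 197 and 204 CPM in Chil3/Ly6i cells, against 8.45 and 11.96 CPM in cDC1. Iigp1 was 221 and 275 CPM in Mgp/Krt8 cells and 116 and 94.6 CPM in Foxp3 T cells, while neutrophils had 1 UMI in the control and 0 in the knockout. The DNA sensor gene Ifi205 was 235 and 297 CPM in cDC1 and had 0 UMIs in neutrophils of both libraries.

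**Figure D2:**
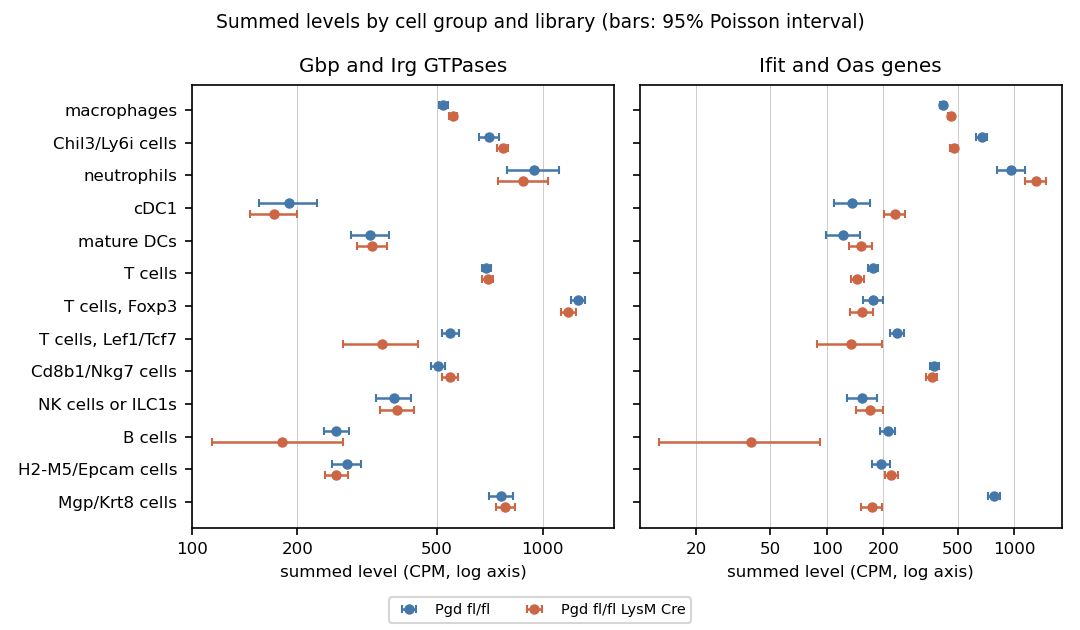
Summed levels (CPM, log axis) of the GTPases (left) and the Ifit and Oas genes (right) by cell group in the control (blue) and knockout (orange) library, with 95% Poisson intervals as bars. GTPase levels run from 171 CPM in knockout cDC1 to 1263 CPM in control Foxp3 T cells, and the libraries separate most for the Ifit and Oas genes of B cells, at 211 and 39.2 CPM, and of Mgp/Krt8 cells, at 781 and 173 CPM.

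The comparison of genotypes asks whether loss of 6PGD in LysM-expressing cells goes with another interferon program, in those cells or in their neighbors. A member was counted as higher or lower in the knockout where its CPM differed at least 1.5-fold with at least 50 UMIs over both libraries. Over the 11 groups, 22 pairs of a member and a group were higher and 28 lower. Of the 255 measured pairs that is 8.63% higher, near the 7.71% over all genes in the same groups, and 10.98% lower, beside 5.004% over all genes. Of the lower pairs, 12 were in B cells, with 35 knockout cells, and 7 in Mgp/Krt8 cells, where 1 control cell set the values. The GTPases gave 4 higher and 4 lower of 71 measured pairs, the Ifit and Oas genes 6 and 12 of 59 (4 of the 12 from that control cell), the regulators 1 and 4 of 39, the sensors 4 and 2 of 28 and the effectors 7 and 6 of 58. The pairs of 1 group share cells and are not independent. Gbp7 (measured in 8 groups), Iigp1 (6), Irgm2, Oas1a and Oas3 (5 each), and Ifi205 and Cmpk2 (4 each) passed the limit in 0 groups. Ifi204 was higher in 3 of 7 groups and lower in 0, Rsad2 higher in 3 of 9 and lower in 1, and Ifit3 lower in 3 of 8 and higher in 0. The lower calls of Rsad2 and Ifit3 in Mgp/Krt8 cells turned without that cell, and the one of Ifit3 in B cells rests on 1 knockout UMI.

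In macrophages, the group with the lowest log2 ratio of the targeted gene, the interferon genes were little changed. The summed log2 ratio was 0.09 (0.04 to 0.15) for the GTPases and 0.14 (0.08 to 0.20) for the Ifit and Oas genes, beside a median of 0.06 over all 10386 genes measured. All 34 members were measured, and 2 were higher and 0 lower, where 5.12% of all genes were higher and 2.96% lower. Ifit1, a cap-binding inhibitor of viral translation, was 33.3 CPM in the control and 55.7 CPM in the knockout, a log2 ratio of 0.74 (0.54 to 0.95), but 0.32 (-0.19 to 0.84) in cells thinned to 2000 UMIs. Igtp was 28.6 and 44.0 CPM, a log2 ratio of 0.62 (0.40 to 0.85), but 0.21 without cells that carry markers of another lineage. The members with most UMIs moved less. Gbp7 was 97.8 and 85.9 CPM, Gbp2 103 and 98.6 CPM, and Oasl1, a relative of the 2-5A synthetases, 97.6 and 88.2 CPM. Ifit3 stood at 51.3 and 69.0 CPM, a log2 ratio of 0.43 (0.25 to 0.60), under the 1.5-fold used. The regulators summed to 358 and 359 CPM, the sensors to 349 and 391 CPM and the effectors to 1450 and 1509 CPM. Irf7, the transcription factor that amplifies type I interferon, was 188 and 167 CPM, and Bst2 (tetherin, which holds virus at the cell surface) 749 and 707 CPM.

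The largest macrophage cluster (578 control and 546 knockout cells) had 1 member higher, Ifit1 at 0.83, and 0 lower of 34 measured, where 4.77% of all genes were higher and 2.69% lower. In the smaller cluster of 91 and 104 cells, 2 of 16 measured members were higher, Gbp3 and Iigp1, and 0 lower, where 12.8% of all genes were higher and 3.9% lower. B cell markers in that cluster summed to 7086 CPM in the control and 137 CPM in the knockout.

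Cycling macrophages (53 control and 57 knockout cells), the Mki67-expressing part of that class, differed more. The GTPases were 419 CPM in the control and 605 CPM in the knockout, a log2 ratio of 0.53 (0.35 to 0.71), and the Ifit and Oas genes 317 and 432 CPM, a ratio of 0.44 (0.24 to 0.66). A single knockout cell held 97 of the 569 Ifit and Oas UMIs, and 1 control cell 36 of 280. After thinning, 31.4% (19.1% to 45.9%) of control and 40.4% (27.6% to 54.2%) of knockout cells had an Ifit or Oas UMI. For the GTPases these shares were 54.9% and 61.4%. The ratios of this cluster were not recomputed under other settings. Of 30 measured members, 9 were higher and 0 lower, where 8.03% of all genes were higher and 5.85% lower. Igtp went from 15 to 80 UMIs, 17.0 to 60.7 CPM, a log2 ratio of 1.84 (1.03 to 2.74). Isg15, a ubiquitin-like protein, went from 159 to 374 CPM, a ratio of 1.24 (0.96 to 1.52), and Ifit3 from 29.5 to 69.8 CPM, a ratio of 1.245 (0.60 to 1.93). The other 6 were Iigp1 at 0.95, Ifi47 at 0.91, Gbp5 at 0.88, Gbp4 at 0.69, Ifit2 at 0.67 and Ifit1 at 0.66. Irf7 stood at 206 and 140 CPM, a ratio of -0.55 (-0.86 to -0.25), in the other direction. The 7 T cell markers summed to 554 CPM in the control and 1243 CPM in the knockout in these cells, none of them at 0. NK cell markers summed to 74.8 CPM with 3 of 8 at 0 and 320 CPM with none at 0, neutrophil markers to 18.1 and 130 CPM, and classical monocyte markers to 178 and 414 CPM. Their part in the result was not tested.

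In Chil3/Ly6i cells, a group that was also low in Pgd and is led by genes known from monocytes, the lists moved apart. The GTPases were 705 and 771 CPM, a log2 ratio of 0.13 (0.02 to 0.24). The Ifit and Oas genes were 671 CPM in the control and 476 CPM in the knockout, a ratio of -0.50 (-0.61 to -0.38), beside a median of 0.04 over all genes. Of the 34 measured members, 0 were higher and 3 lower, where 8.24% of all genes were higher and 3.92% lower. All 3 were Ifit and Oas genes. Ifit3 was 120 CPM in the control and 64.9 CPM in the knockout, a log2 ratio of -0.89 (-1.18 to -0.59). Its neighbor on the chromosome, Ifit3b, was 35.02 and 10.3 CPM, a ratio of -1.76 (-2.41 to -1.11). Oas2, a 2-5A synthetase, was 26.5 and 14.99 CPM, a ratio of -0.82 (-1.46 to -0.16), and -0.51 (-2.24 to 1.41) with cells thinned to 2000 UMIs. Ifit1 lay just inside the limit with 78.6 and 53.0 CPM, a ratio of -0.57, while Oasl1 was 72.4 and 76.7 CPM. Iigp1 was 45.1 and 64.6 CPM, a ratio of 0.52 (0.10 to 0.95), under the 1.5-fold used. The 7 markers of T cells summed to 447 and 861 CPM here, with none at 0, and the 8 of NK cells to 31.1 CPM with 3 at 0 and 205 CPM with none at 0. The 7 neutrophil markers summed to 239 and 66.7 CPM, the 6 of plasmacytoid DCs to 150 and 53.7 CPM, and the 7 of classical monocytes to 3096 and 2219 CPM. Their part in the result was not tested. Without cells that carry markers of another lineage the Ifit and Oas ratio was -0.69.

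Neutrophils held few UMIs, so only 10 members could be measured. The GTPase ratio was -0.10 (-0.44 to 0.25) and the Ifit and Oas ratio 0.44 (0.12 to 0.75). Only 1 of the 10 GTPases and 2 of the 9 Ifit and Oas genes were measured. Of those 2 Ifit and Oas genes, 0 were higher and 0 lower, with a median log2 ratio of 0.12. The Ifit and Oas sums were 137 and 225 UMIs, so the ratio does not describe the family. Of the 10 measured members, 3 were higher and 2 lower, where 12.6% of all genes were higher and 19.3% lower. Rsad2 (viperin, an antiviral enzyme) went from 732 to 1247 CPM, a log2 ratio of 0.77 (0.42 to 1.12). Rtp4 was 190 and 325 CPM and Ifi204, a DNA sensor, 162 and 284 CPM. Irf1 was 436 CPM in the control and 209 CPM in the knockout, a ratio of -1.06 (-1.70 to -0.45). Gbp2 was 387 and 255 CPM, a ratio of -0.60 that reached -0.00 at its upper limit. B cell markers summed to 612 CPM in the control and 168 CPM in the knockout neutrophils, where 5 of the 7 were at 0, T cell markers to 683 and 244 CPM, and NK cell markers to 113 and 17.4 CPM, with 7 and 6 of 8 at 0. Their part in the results was not tested. Rsad2 was 0.55 without cells that carry markers of another lineage, Rtp4 0.56 after thinning and Gbp2 -0.56 when centred on all genes, all under the 1.5-fold used.

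In cDC1 the summed level of the Ifit and Oas genes was higher in the knockout. Of these 9 genes, 2 were measured and 1, Oasl1, was higher. The GTPase ratio was -0.14 (-0.49 to 0.21) but 0.72 after thinning, 0 of the 10 GTPases had 50 UMIs, and 1 control cell held 34 of the 112 GTPase UMIs, so the lists are not set against each other here. Summed over the Ifit and Oas genes, the level was 137 CPM in the control and 230 CPM in the knockout, a ratio of 0.75 (0.38 to 1.13). Of 13 measured members, 5 were higher and 0 lower, where 13.5% of all genes were higher and 3.18% lower. Oasl1 carried most of it, with 19 UMIs or 32.1 CPM in the control and 121 UMIs or 121 CPM in the knockout, a log2 ratio of 1.91 (1.2 to 2.69). Zbp1, a sensor of Z-form nucleic acid, was 57.5 and 113 CPM, a ratio of 0.97 (0.41 to 1.57), and Ifi204 was 40.6 and 76.8 CPM, a ratio of 0.92 that was 0.12 after thinning. Usp18, which trims ISG15 and dampens IFNAR signaling, had a ratio of 0.75 (-0.16 to 1.75), 0.37 after thinning, and Ifi44 one of 0.76 (-0.12 to 1.71). The 9 macrophage markers in these cells summed to 294 CPM in the control, with 2 at 0, and 2119 CPM in the knockout, with 1 at 0. T cell markers summed to 453 and 873 CPM, and NK cell markers to 47.3 CPM with 4 of 8 at 0 and 328 CPM with none at 0. Their part in the results was not tested. Without cells that carry markers of another lineage, which left 28 cells in each library, the Ifit and Oas ratio was 0.69 (0.10 to 1.29) and that of Oasl1 was 0.51.

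Mature DCs had a GTPase ratio of 0.01 and an Ifit and Oas ratio of 0.31 (-0.05 to 0.68). Without cells that carry markers of another lineage the GTPase ratio was -0.60 (-0.93 to -0.27), and after thinning the Ifit and Oas ratio was -0.36. Macrophage markers in mature DCs summed to 1681 and 703 CPM, with none at 0, and NK cell markers to 667 and 277 CPM, with 4 and 1 of 8 at 0, and their part in the results was not tested. Of 15 measured members, 2 were higher and 1 lower, where 8.06% of all genes were higher and 4.22% lower. Oasl2 was 12.8 CPM in the control and 33.4 CPM in the knockout, a log2 ratio of 1.39 (0.37 to 2.55). Rsad2 was 57.4 and 130 CPM, a ratio of 1.17 (0.69 to 1.68), but -0.20 without cells that carry markers of another lineage. Usp18 was 44.7 and 27.0 CPM, a ratio of -0.73, and 1 control cell held 19 of its 35 UMIs (0.23 without it).

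**Figure D3:**
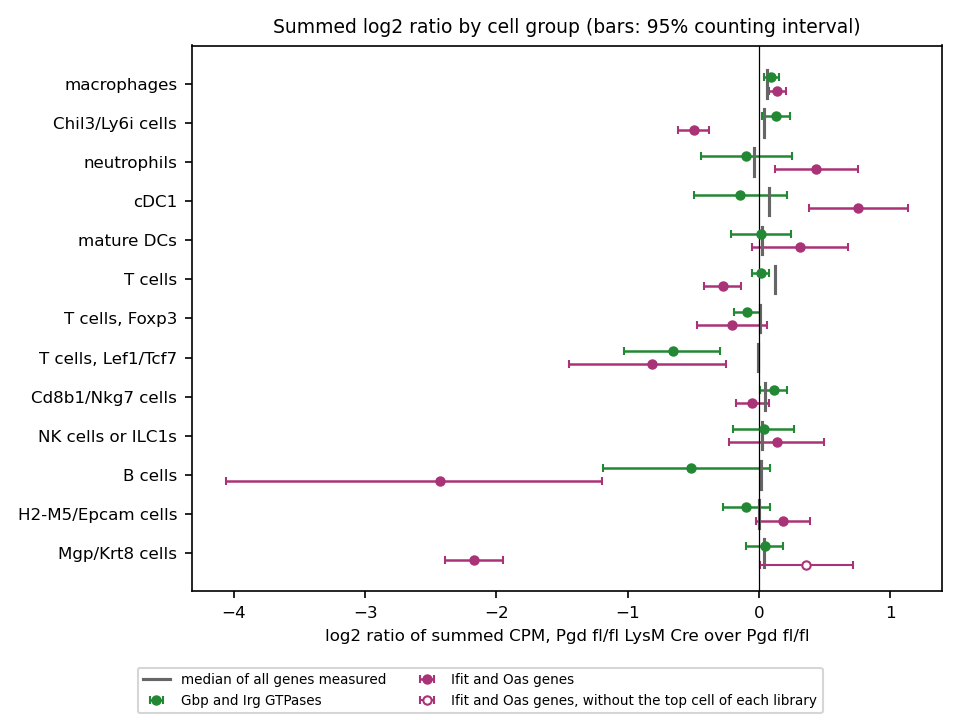
Log2 ratio of the summed CPM, knockout over control, for the GTPases (green) and the Ifit and Oas genes (purple) by cell group, with 95% counting intervals as bars and the median of all genes measured as a grey stroke. GTPase ratios of the 11 groups stay between -0.52 and 0.13, whereas the Ifit and Oas ratios run from -2.43 in B cells to 0.75 in cDC1, and the open circle shows Mgp/Krt8 cells at 0.36 without the top cell of each library.

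Lymphoid cells, which do not use the lysozyme M gene that drives Cre, differed by subset. For the T cells the GTPase ratio was 0.01 (-0.05 to 0.08) and the Ifit and Oas ratio -0.28 (-0.42 to -0.14), beside a median of 0.12 over all genes. The largest T cell cluster was the Lef1/Tcf7 cluster (470 control and 51 knockout cells) in the control and the Foxp3 cluster in the knockout. With the clusters weighted as in the control the ratios were -0.22 and -0.45. Of 32 measured members, 1 was higher and 2 were lower, where 7.91% of all genes were higher and 3.88% lower. Ifi204 was 5 CPM in the control and 14 CPM in the knockout, a log2 ratio of 1.49 (0.85 to 2.15). Oas2 was 6.25 and 2.84 CPM, a ratio of -1.14 (-2.16 to -0.20), and Oasl2 20.9 and 13.1 CPM, a ratio of -0.67 (-1.14 to -0.22), but -0.22 (-1.05 to 0.57) after thinning.

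The T cell clusters themselves did not move together. In Foxp3 T cells 0 of 23 measured members were higher and 0 lower, where 3.52% of all genes were higher and 2.88% lower, with a GTPase ratio of -0.09 (-0.19 to 0.00). In cycling T cells the GTPase ratio was -0.05 and the Ifit and Oas ratio 0.34 (0.10 to 0.58), and 4 members were higher and 0 lower, where 5.39% of all genes were higher and 3.35% lower. These were Ifih1 (MDA5, a sensor of double-stranded RNA) at 1.19, Ifit2 at 0.79, Ifit1 at 0.73 and Rsad2 at 0.60. The top 8 of 151 control cells held 35.1% of the Ifit and Oas UMIs of cycling T cells, and the top 9 of 161 knockout cells 47.8%. After thinning, 22.1% (15.8% to 29.7%) and 24.8% (18.4% to 32.3%) of cells had an Ifit or Oas UMI. In the Tnfsf8/Cd4 cluster 0 of 11 measured members were higher and 0 lower, where 4.31% of all genes were higher and 5.51% lower. In the Lef1/Tcf7 cluster, whose 51 knockout cells give wide intervals, the GTPase ratio was -0.65 (-1.03 to -0.30) and the Ifit and Oas ratio -0.82 (-1.45 to -0.25). There 15 of 20 measured members were lower and 1 was higher, where 18.0% of all genes were lower and 12.5% higher.

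Cd8b1/Nkg7 cells, led by genes of cytotoxic T cells, had nearly equal levels in both libraries. The GTPase ratio was 0.11 (0.01 to 0.22) and the Ifit and Oas ratio -0.05 (-0.18 to 0.07). Of 29 measured members, 1 was higher and 0 were lower, where 4.16% of all genes were higher and 1.96% lower. The higher one was Gbp5, which helps the inflammasome assemble, at 12.99 and 20.4 CPM, a log2 ratio of 0.65 (0.04 to 1.27), but 0.38 (-0.26 to 1.03) with finer clusters (resolution 1.6). Ifit3 was 133 and 135 CPM and Ifit1 100 and 98.2 CPM.

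NK cells or ILC1s had a GTPase ratio of 0.03 and an Ifit and Oas ratio of 0.13 (-0.23 to 0.49). Of 14 measured members, 2 were higher and 1 was lower, where 4.56% of all genes were higher and 4.42% lower. Isg15 was 99.9 CPM in the control and 154 CPM in the knockout, a log2 ratio of 0.62 (0.21 to 1.05), but 0.083 (-0.37 to 0.54) when clustered with the members and 0.20 (-0.63 to 1.05) after thinning. Ifit1 was 26.2 and 45.2 CPM, a ratio of 0.79 (-0.02 to 1.63), and Xaf1, a gene of cell death, 66.2 and 44.0 CPM, a ratio of -0.59 (-1.24 to 0.05). The last 2 intervals include 0, and Ifit1 was 0.53 when clustered with the members and Xaf1 0.40 after thinning.

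B cells were nearly all from the control, 567 cells against 35, so the knockout values rest on a handful of UMIs. The Ifit and Oas genes had 481 UMIs in the control and 5 in the knockout, a log2 ratio of -2.43 (-4.06 to -1.20), and the GTPases 588 and 23 UMIs, a ratio of -0.52 (-1.19 to 0.08). Of 19 measured members, 12 were lower and 1 was higher, where 20.3% of all genes were lower and 17.2% higher. Zbp1 had 227 control UMIs against 3 in the knockout, and its ratio was -2.08 (-4.37 to -0.52). For Bst2, 408 and 11 UMIs gave a ratio of -1.06 (-2.07 to -0.20). Irgm1 had 98 UMIs in the control and 0 in the knockout, and against a floor of 3 counts it was at least 1.83-fold lower. Rtp4 at -2.54 and Ifit3 at -2.65 had 1 knockout UMI each. Gbp3 had 56 and 8 UMIs, a ratio of 1.35 (0.07 to 2.43), in the other direction. After thinning, Gbp3 was -0.75, Gbp4 0.15 and Oasl2 0.30, and Bst2 at -0.27, Isg15 at -0.40, Oasl1 at -0.30 and Irf7 at -0.045 were under the 1.5-fold used.

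H2-M5/Epcam cells had a GTPase ratio of -0.10 (-0.27 to 0.08) and an Ifit and Oas ratio of 0.18 (-0.02 to 0.39). Of 31 measured members, 4 were higher and 0 were lower, where 4.39% of all genes were higher and 4.01% lower. Rsad2 went from 21.5 to 51.9 CPM, a log2 ratio of 1.27 (0.72 to 1.87), and Ifit2 from 13.7 to 30.1 CPM, a ratio of 1.14 (0.43 to 1.91). After thinning the Ifit and Oas ratio was -0.10, that of Ifit2 -0.044, that of Rsad2 0.59 (-0.91 to 2.27) and that of Oasl2 0.35. Ifi44 had a ratio of 1.26 and Oasl2 one of 0.67. Gbp2 in the same cells was 50.7 and 37.1 CPM, a ratio of -0.45 (-0.90 to -0.00).

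Mgp/Krt8 cells, whose leading genes include epithelial keratins, showed how 1 cell can set a value. The GTPases were 761 and 783 CPM, a ratio of 0.04 (-0.10 to 0.19), but the Ifit and Oas genes were 781 CPM in the control and 173 CPM in the knockout, a ratio of -2.17 (-2.39 to -1.95). Of 24 measured members, 1 was higher (Gbp3, 0.70) and 7 were lower, where 9.95% of all genes were higher and 4.86% lower. A single control cell with 28502 UMIs held 565 of the 667 Ifit and Oas UMIs, and the next cell held 9. That cell had 407 of the 415 Ifit1 UMIs, and the other 71 control cells shared 8. It also held 60 Ifit2, 30 Ifit3, 34 Oasl2, 34 Ifih1, 329 Isg15 and 219 Rsad2 UMIs, which are the 7 lower members. The same cell had 4 Igtp, 4 Iigp1 and 1 Irf7 UMIs, but 30 Gbp2 UMIs, beside 84 Gbp2 UMIs in the other 71 cells. Without the top cell of each library the Ifit and Oas ratio was 0.36 (0.01 to 0.71), with Ifit1 at 1.45, Rsad2 at 0.97, Isg15 at 0.33, Ifit2 at 0.15 and Ifit3 at 0.13, while Oasl2 was -0.06 and Ifih1 -0.105.

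**Figure D4:**
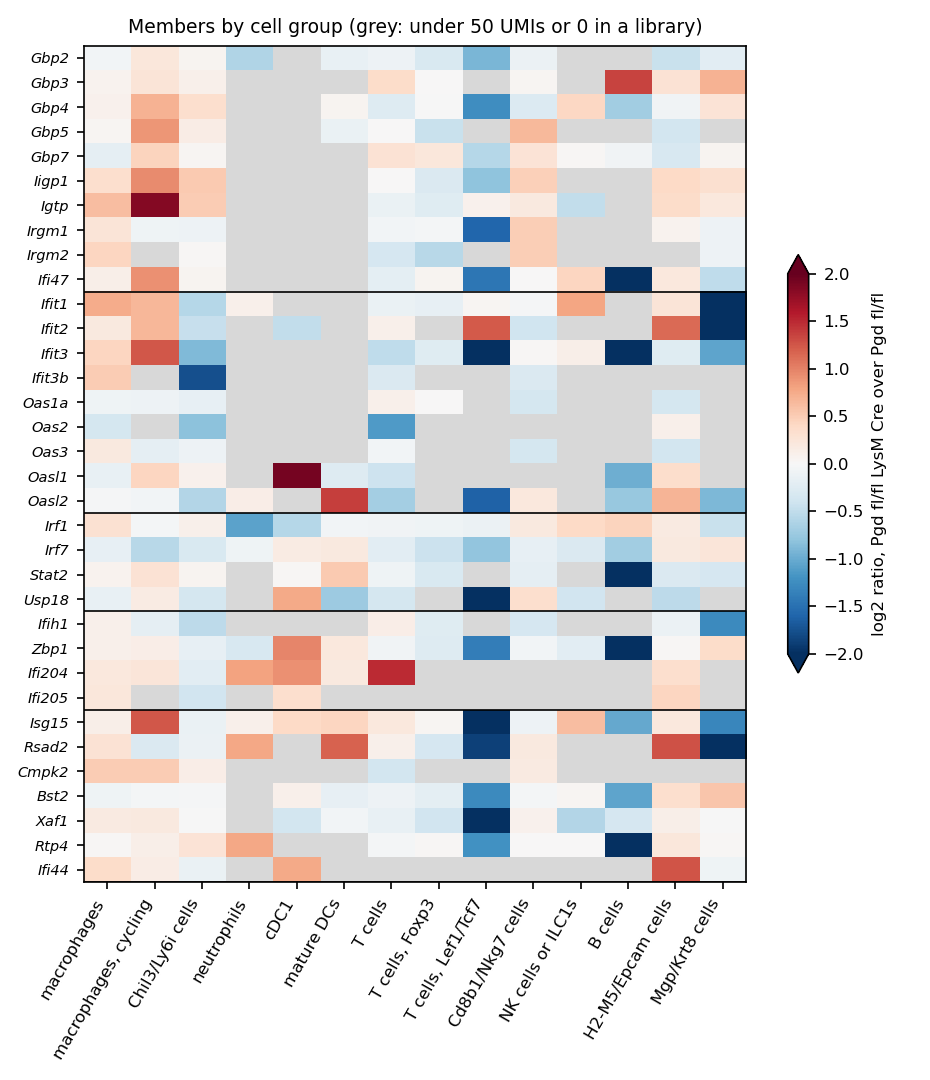
Log2 ratio, knockout over control, of each of the 34 members (rows, divided by list) in the cell groups and 3 of their subsets (columns), where red is higher in the knockout, blue is lower, and grey marks members with under 50 UMIs or with 0 in a library. The macrophage column is pale throughout, with Ifit1 at 0.74 and Igtp at 0.62 the strongest, while blue stands in the Ifit and Oas rows of Chil3/Ly6i cells and in most measured rows of B cells and Lef1/Tcf7 T cells.

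The spread over cells also set the lists apart. In macrophages the top 5% of cells held 28.0% of GTPase UMIs in the control and 28.6% in the knockout, and 35.7% and 39.3% of Ifit and Oas UMIs. In Cd8b1/Nkg7 cells the values were 28.1% and 26.5% for the GTPases and 45.9% and 39.3% for the Ifit and Oas genes. In Foxp3 T cells they were 21.1% and 20.2% against 55.9% and 51.7%. The Ifit and Oas UMIs were thus held by fewer cells than the GTPase UMIs in these groups and in both libraries. In Chil3/Ly6i cells the lists were nearer, with 24.8% and 26.2% against 31.8% and 30.6%. These shares depend on depth and on the number of UMIs in each list. In macrophages thinned to 2000 UMIs, 51.8% of control and 58.4% of knockout cells had a GTPase UMI, and 39.8% and 40.5% an Ifit or Oas UMI, beside unthinned shares for the GTPases of 86.6% and 87.7%. No cell group here lacked either list as a whole, so background from free RNA was not set beside these list shares.

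**Figure D5:**
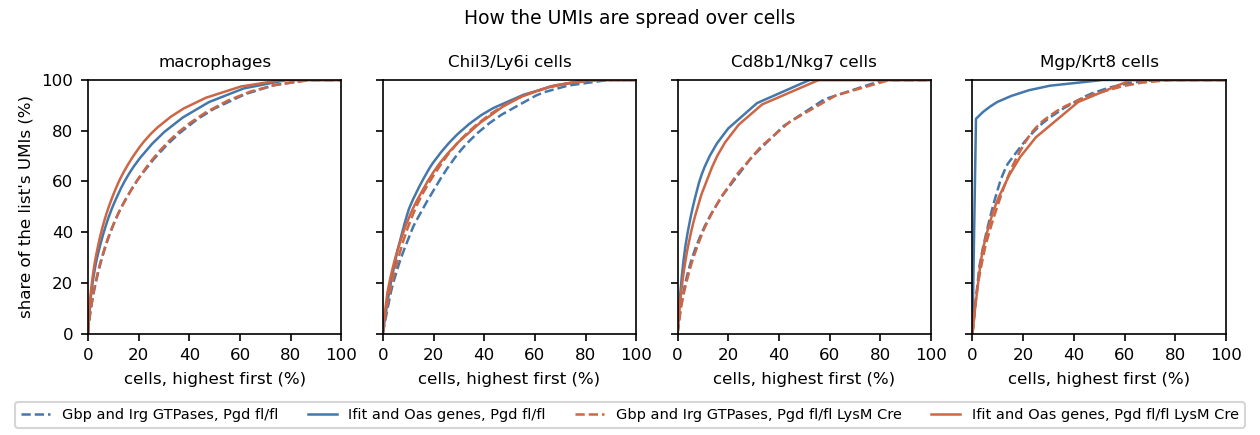
Share of the UMIs of each list (%) held by the highest cells (%, highest first) in 4 groups, for the GTPases (dashed) and the Ifit and Oas genes (solid), control blue and knockout orange. In Cd8b1/Nkg7 cells the solid lines rise faster than the dashed ones, with 45.9% against 28.1% of UMIs in the top 5% of control cells, and in control Mgp/Krt8 cells the solid line starts near the 565 of 667 UMIs of its single highest cell.

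When the members were allowed among the variable genes, 1 cluster led by Ifit3, Ifit3b and Ifit1 formed, with 44 control cells (1.23%, exact binomial interval 0.898% to 1.65%) and 38 knockout cells (1.36%, 0.963% to 1.86%). All 44 control cells and 34 of the 38 knockout cells came from the Cd8b1/Nkg7 group. They made up 8.06% and 8.72% of that group and held 54.7% and 49.2% of its Ifit and Oas UMIs. Their Ifit and Oas level was 2984 CPM in the control and 2358 CPM in the knockout, beside 182 and 199 CPM in the rest of the group, and their GTPase level was 2175 and 2072 CPM beside 380 and 423 CPM. Since the members defined this cluster, the values describe it and test nothing.

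Of 29 other genes of the pathway, 28 matched and Cxcl11 is not analysed here. Among the ligands, Ifng had 4172 UMIs in the control and 4547 in the knockout, Ifnb1 had 79 and 103, and Ifna1, Ifna4, Ifna5 and Ifnl3 had 0 in both. In macrophages 22 of the pathway genes were measured, 1 higher and 4 lower, where 5.12% of all genes were higher and 2.96% lower. The higher one was Ifng itself, 46.3 CPM in the control and 85.1 CPM in the knockout, a log2 ratio of 0.88 (0.71 to 1.05). In the same cells the T cell markers went from 600 to 873 CPM and the NK cell markers from 129 to 271 CPM, with none at 0, and their part in the Ifng value was not tested.

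The receptors and their kinases in macrophages stayed under 1.5-fold. Ifngr1 was 236 and 239 CPM, and Ifnar1 149 and 119 CPM. The chemokine Cxcl9, an interferon gamma target that draws T cells, was 909 CPM in the control and 460 CPM in the knockout, a log2 ratio of -0.98 (-1.03 to -0.93). Cxcl10, which answers both interferons, was 222 and 310 CPM, a ratio of 0.48 (0.40 to 0.56). Socs3 (an inhibitor of cytokine receptors) was lower at -0.63, as were the interferon gamma inducing cytokine genes Il18 at -0.86 and Il12b at -0.79, while Socs1 stood at 0.49. The GTPases, targets of the same interferon, had the ratio of 0.09 in these cells given above.

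In Chil3/Ly6i cells Cxcl9 was 918 and 1035 CPM, a ratio of 0.17 (0.08 to 0.27), and Cxcl10 314 and 261 CPM, a ratio of -0.27. There 1 of 21 measured pathway genes was higher, Ifng at 1.57 (0.97 to 2.23), beside the T and NK cell markers given above, and 2 were lower, Il12b at -1.94 and Il18 at -0.61. Of all genes in these cells, 8.24% were higher and 3.92% lower. In Cd8b1/Nkg7 cells, the group with the most Ifng UMIs, Ifng had 1818 and 1327 UMIs, a ratio of -0.05. In cDC1, 3 of 18 measured pathway genes were higher, Il12b at 2.79, Ifng at 1.56 and Socs1 at 0.69, and 1 was lower, Cxcl10 at -0.70, where 13.5% of all genes were higher and 3.18% lower. The T and NK cell markers given above for cDC1 stand beside the Ifng value. In Mgp/Krt8 cells Cxcl9 was 51.5 and 199 CPM, a ratio of 1.95 (1.48 to 2.44), and Cxcl10 396 and 49.7 CPM, of which the 1 control cell described above held 285 of 338 UMIs.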

How the data were processed

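Per the labels, 10x Genomics single-cell libraries of AT3 tumor leukocytes were made, 1 for each genotype. The authors deposited UMI counts per gene and cell, and the submitters' processing notes name Cell Ranger 6.1.2 and mm10. Counts were used as deposited, with 12 sample tag features left out. The cells kept had 500 to 7500 genes and no more than 15% of UMIs from mitochondrial genes, and doublets were not called. Seurat 5.3.0 (R 4.3.3) clustered both libraries together on 2000 variable genes without the members, 30 principal components and resolution 0.8. Clusters were named from marker lists. Counts were summed per group and library and divided by all UMIs there (CPM), with exact Poisson intervals, and log2 ratios have exact conditional intervals (Python 3.11.15, scipy 1.17.1). These cover counting error only and are too narrow where few cells hold the UMIs. Named genes were members past 1.5-fold with at least 50 UMIs, the 3 members of each main list with most UMIs, and pathway genes past the same limit, and others were chosen after their values were seen. Members, lists and markers were chosen with earlier results of these data known. No test between genotypes was possible with 1 library each. The interval code was tested on simulated data. Sequences and positions are from RefSeq (GRCm38.p6), the build of mm10. Alternatives were a clustering that includes the members, resolution 1.6, cells thinned to 2000 UMIs, a mitochondrial limit of 10%, removal of cells with markers of another lineage, centring on all genes, control cluster shares, removal of the top 1% of cells and other fold and UMI limits.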

Additional observations from a re-analysis of the deposited data

Results flagged for a closer look

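The values here stand out because 2 cell groups had opposite ratios (log2, knockout over control), and none of these differences between groups was tested, since each genotype is 1 library. The Ifit and Oas list had a ratio of 0.75 in cDC1, most of it from Oasl1. The ratio of this list was -2.43 in B cells, of which the knockout held 35. Ifit2 was 1.14 in H2-M5/Epcam cells and -2.64 in Mgp/Krt8 cells, and Rsad2 was 1.27 and -2.16 in the same groups. Oasl2 was 1.39 in mature DCs and -0.90 in Mgp/Krt8 cells, and Isg15 was 0.62 in NK cells or ILC1s (0.083 when clustered with the members, 0.20 after thinning) and -1.30 in Mgp/Krt8 cells. After thinning Ifit2 in H2-M5/Epcam cells was -0.044. The Mgp/Krt8 values of these genes rest on 1 control cell. Zbp1 was 0.97 in cDC1 and -2.08 in B cells. Rtp4 was 0.77 in neutrophils and -2.54 in B cells.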

How the results depend on the processing

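No paired analysis was possible because each genotype has 1 library, and for the same reason no library could be left out. The alternatives were run for the 11 groups and not for the single clusters of macrophages and T cells. Of 22 list ratios under 154 alternatives, 129 stayed within their counting interval and 1 reversed past the limit, that of the Ifit and Oas genes in Mgp/Krt8 cells, 0.36 without the top 1% of cells. In all, 22 of the 154 had the opposite sign to the reported ratio. Thinning to 2000 UMIs moved most values and leaves few UMIs. Under it the GTPase ratio was 0.24 in macrophages, 0.20 in T cells, 0.22 in Cd8b1/Nkg7 cells, 0.72 in cDC1, -0.32 in mature DCs, 0.21 in H2-M5/Epcam cells, 0.31 in Mgp/Krt8 cells and -1.60 in B cells, and the Ifit and Oas ratio was 0.061 in macrophages, 0.10 in Cd8b1/Nkg7 cells, 1.11 in neutrophils, -0.36 in mature DCs, -0.10 in H2-M5/Epcam cells and -1.25 in Mgp/Krt8 cells. Centred on all genes, the macrophage ratios were 0.030 (GTPases) and 0.077 (Ifit and Oas) and the T cell GTPase ratio -0.11. With control cluster shares the T cell ratios were -0.22 and -0.45. With the members among the variable genes the Cd8b1/Nkg7 ratios were 0.26 and 0.18. Without cells that carry markers of another lineage the GTPase ratio was -0.039 in macrophages and -0.60 in mature DCs, and the Ifit and Oas ratio -0.69 in Chil3/Ly6i cells. The cause of these moves was not tested. Higher and lower pairs, 22 and 28, were 52 and 58 at the lower fold limit tried, 8 and 16 at 2-fold, 10 and 12 with at least 100 UMIs, and 6 and 10 after thinning, and 37 were higher with at least 20 UMIs. The shares over all genes at these other limits are not given. These counts therefore say nothing of the members beside all genes. Of the 49 single member calls with a ratio, 32 were under 1.5-fold in at least 1 alternative, 18 of 47 after thinning. Single members that reversed were, after thinning, Gbp3 (-0.75), Gbp4 (0.15) and Oasl2 (0.30) in B cells, Ifit2 (-0.044) in H2-M5/Epcam cells, Xaf1 (0.40) in NK cells or ILC1s and Oasl2 (0.14) in Mgp/Krt8 cells, without other-lineage cells Rsad2 (-0.20) in mature DCs, and without the top 1% of cells or the top cell, an alternative chosen after seeing the data, Usp18 (0.23) in mature DCs and, in Mgp/Krt8 cells, Ifit1 (1.45), Ifit2 (0.15), Ifit3 (0.13), Isg15 (0.33) and Rsad2 (0.97). The Ifit and Oas ratio stayed between -0.69 and -0.41 in Chil3/Ly6i cells and between 0.48 and 0.95 in cDC1 under all alternatives run. The reported cDC1 ratio rests mostly on Oasl1.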
